A study of Mus musculus with 2 samples.

Results

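The 40 genes described here encode receptors for serotonin (14 genes), for adrenaline and noradrenaline (8), histamine (4), dopamine (5), acetylcholine of the muscarinic class (5) and adenosine (4). They were taken from a fixed list of symbols matched to GENCODE M21 (GRCm38), and all 40 were found among the 55487 gene rows of a single count table. Transcripts had been measured by RNA sequencing in 2 samples of Langerhans cells, which reside in the epidermis and present antigen, sorted as CD207-positive and MHC class II-positive cells from digested ears of HTR2A-/- mice, in which the serotonin 2A receptor gene is targeted. Both samples carried this genotype and both had been exposed to Imiquimod, an agonist of Toll-like receptor 7, and to an agent labelled a-CD40L for 24 hours after the sort, so they form 1 group and no genotype or treatment can be compared. The title of the series describes the cells as derived from monocytes. The labels give neither the age of the mice nor the strain, the mice behind each sample, or the part of Htr2a that was removed.

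Except for the Htr3 genes, which encode subunits of a serotonin-gated ion channel, these genes encode receptors with a bundle of membrane-spanning helices that act through G proteins. Receptors coupled to Gs raise cyclic AMP, those coupled to Gi lower it, and those coupled to Gq activate phospholipase C and release calcium. In antigen-presenting cells, agonists of Gs-coupled adenosine, histamine, serotonin and adrenergic receptors are known as modulators of cytokine release, and adenosine is formed outside cells from ATP released by stressed or dying neighbours.

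Library 1 held 69925160 counts and library 2 held 42264685. The targeted gene Htr2a had 77 and 117 counts in them, and since the deleted part is not given, these counts do not check the genotype. Of 10 Langerhans cell genes 9 lay above background in both libraries, beside 49.8% of protein-coding genes. Cd207, which encodes langerin and marks the sort, stood at 1125 and 1052 CPM in libraries 1 and 2, CPM being the count scaled by the total of its library. The libraries differed in other cell markers: summed over 10 keratinocyte genes they held 4427 and 15410 CPM, over 10 Langerhans cell genes 21556 and 11610 CPM, over 8 monocyte and macrophage genes 1915 and 904 CPM, and over 8 T cell genes 228 and 131 CPM. Single genes went against these sums. Cdh1 (481 and 793 CPM) and Epcam (155 and 178) were higher in library 2 among the Langerhans cell genes, and Mrc1 (82.4 and 134) among the macrophage genes. So were Thy1 (30.9 and 68.3) and Trac (0.872 and 1.23) among the T cell genes, while the keratinocyte gene Krt15 (69.4 and 57.3) was lower. All other genes of these lists went with their sum. The part of these library differences in the receptor values was not tested. Fewer cells of a type and less RNA per cell cannot be told apart in such samples.

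Few of these receptors had transcripts that stood clear of background. Levels are given as CPM per kb of exon, which allows genes of different length to be compared, and background was the level of 1135 protein-coding olfactory receptor genes, best known from the sensory neurons of the nose. Receptors counted as above background had a level over the 95th percentile of those genes, 0.761 CPM per kb in library 1 and 1.58 in library 2. In both libraries 5 of 40 receptors did, namely the adenosine receptor genes Adora2b and Adora3, the serotonin receptor genes Htr7 and Htr2b and the muscarinic receptor gene Chrm5. Of 20839 protein-coding genes other than olfactory receptors 49.8% were above background in both libraries, and of the olfactory receptors themselves 2.20%. Taken one library at a time, 12 receptors were above background in library 1 (58.9% of protein-coding genes were) and 5 in library 2 (52.9%). The 7 receptors above background in library 1 alone were Adora2a, Adrb1, Adra1a, Adra2b, Adra1d, Hrh2 and Htr3a. The median receptor was at 0.346 CPM per kb in library 1 and 0.864 in library 2, percentiles 70.7 and 68.9 of the olfactory receptor genes, whereas the median of the other protein-coding genes lay at percentile 98.6 and 97.1.

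**Figure D1:**
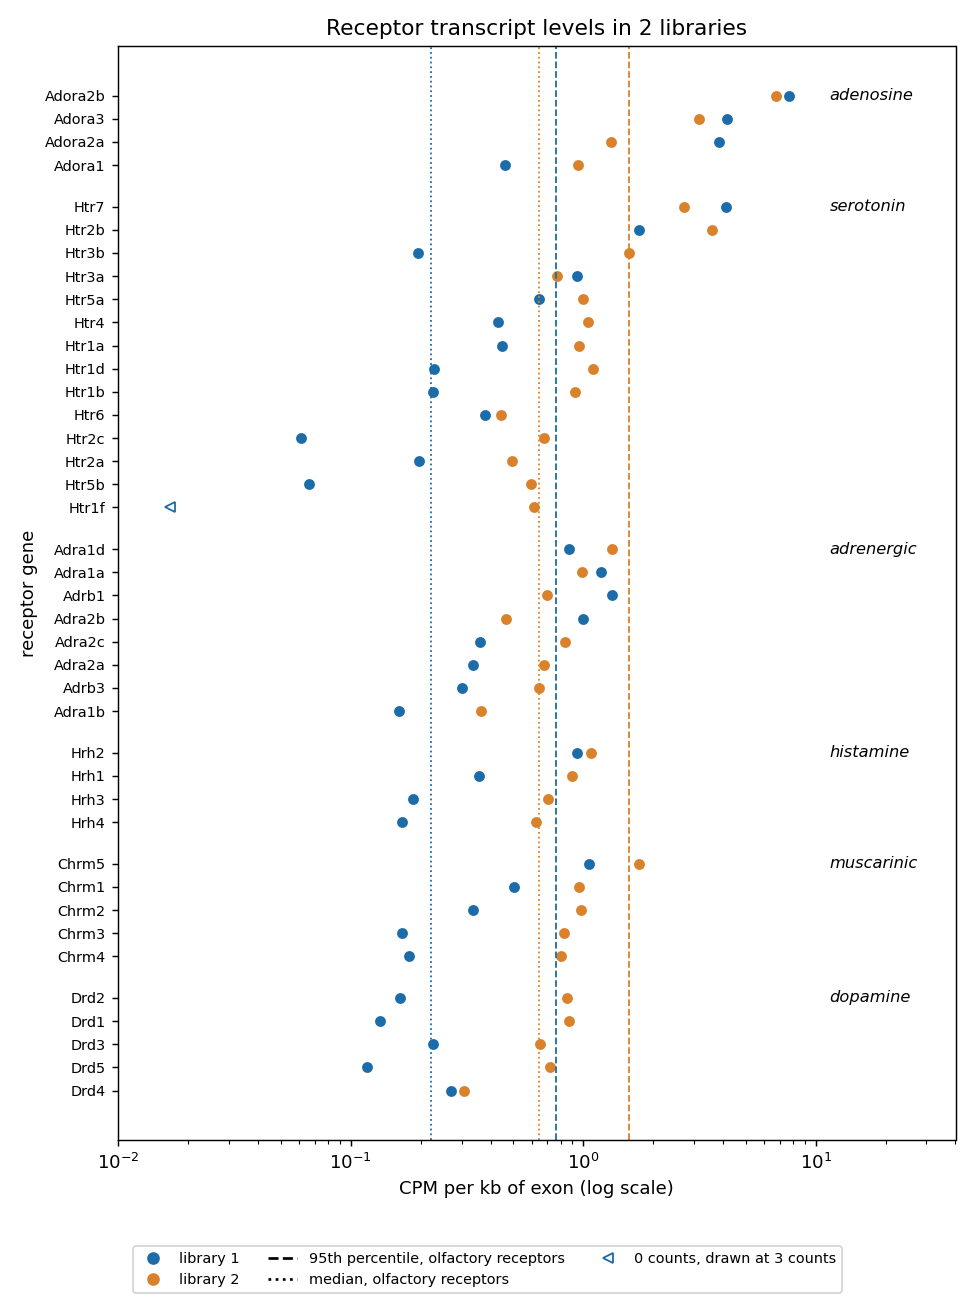
Level of each of the 40 receptor genes in CPM per kb of exon (log axis, 1 point per library, blue for library 1 and orange for library 2), ordered within each family by the mean of both libraries. Dashed and dotted lines mark the 95th percentile and the median of 1135 olfactory receptor genes in the library of the same colour; Adora2b, Adora3, Htr7, Htr2b and Chrm5 lie to the right of both dashed lines in their own colours, and Htr1f, with 0 counts in library 1, is drawn there at the level of 3 counts.

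The bases upstream of the RefSeq start are shown for the 4 receptor genes with the highest mean level per kb, and for the targeted gene Htr2a. They are shown because RefSeq places the start of transcripts of the genes discussed next there. The Adora3 window lies inside that gene as GENCODE M21 places it (105870858 to 105908926), so it is not upstream of the GENCODE start. Sequences are from RefSeq (GRCm38.p6), which held an entry for 31 of the 40 genes (Adora2a was not among them), and run 5′ to 3′ on the gene's strand up to the annotated start; bases that GENCODE M21 places in an exon of the gene were left off. Capitals mark matches, on either strand, to TGANTCA (an AP-1 site), GGG and CC with any 5 bases between them (a loose NF-κB site), GGGCGG (a GC box) or CCAAT, and where matches overlap the capitals run on. Also searched, with no match in these windows, were TGACG (the core of a cAMP response element, also held by the full element), TATAAA, and GAAA repeated after any 2 bases (the core of an interferon-stimulated response element); of all windows of 250 bases these are found in 17.8%, 12.4% and 2.97%.
Adora2b, chr11:62248734-62248983, plus strand: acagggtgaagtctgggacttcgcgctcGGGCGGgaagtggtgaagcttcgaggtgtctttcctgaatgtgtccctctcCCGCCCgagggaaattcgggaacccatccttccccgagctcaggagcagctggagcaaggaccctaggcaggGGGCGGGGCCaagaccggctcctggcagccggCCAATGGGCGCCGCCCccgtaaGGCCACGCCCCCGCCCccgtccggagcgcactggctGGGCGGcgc
Adora3, chr3:105904171-105904420, plus strand: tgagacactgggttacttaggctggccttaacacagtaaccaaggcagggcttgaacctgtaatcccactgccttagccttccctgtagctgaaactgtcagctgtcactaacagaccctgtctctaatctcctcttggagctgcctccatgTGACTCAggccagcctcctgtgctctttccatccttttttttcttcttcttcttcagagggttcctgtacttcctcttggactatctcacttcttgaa
Htr7, chr19:36057508-36057610, minus strand: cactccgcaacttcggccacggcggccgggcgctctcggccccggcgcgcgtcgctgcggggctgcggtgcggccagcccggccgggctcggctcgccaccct
Htr2b, chr1:86111981-86112230, minus strand: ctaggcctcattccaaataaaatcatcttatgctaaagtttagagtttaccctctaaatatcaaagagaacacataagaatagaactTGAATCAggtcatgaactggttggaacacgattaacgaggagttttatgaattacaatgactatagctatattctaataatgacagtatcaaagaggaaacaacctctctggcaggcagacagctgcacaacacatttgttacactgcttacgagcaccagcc
Htr2a, chr14:74640624-74640839, plus strand: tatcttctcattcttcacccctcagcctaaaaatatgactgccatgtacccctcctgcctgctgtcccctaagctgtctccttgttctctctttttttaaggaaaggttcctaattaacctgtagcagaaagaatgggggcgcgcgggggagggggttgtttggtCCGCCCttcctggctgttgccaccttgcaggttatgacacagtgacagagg

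These start regions were unlike in composition. The Adora2b window held 22 CpG dinucleotides in 250 bases with 6 GC boxes, and the Htr7 window 19 in 103 bases, against 0 in the Adora3 and 3 in the Htr2b window. The median over 32817 RefSeq windows of 250 bases was 6, and no median was taken for the 103 bases to which the Htr7 window was cut. Adora3 and Htr2b each held 1 match to TGANTCA, which 6.75% of all windows of that length hold. The GC box is found in 32.7% of them, the loose NF-κB pattern, matched 4 times before Adora2b, in 45.8%, and CCAAT in 33.8%. The Htr2a window of 216 bases held 4 CpG and 1 GC box, which 27.9% of all windows hold in their first 216 bases. A match is a string of letters in a window and was not tested as a site.

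Adenosine receptors had the highest median level per kb of exon of the 6 families in both libraries, at percentile 99.8 and 94.9 of the olfactory receptor genes. Adora2b (ENSMUSG00000018500, chromosome 11, 62248984 to 62266453, plus strand) encodes the low-affinity Gs-coupled adenosine 2B receptor. Its 995 counts in library 1 came to 14.2 CPM, with a 95% Poisson interval from 13.4 to 15.1, and its 525 counts in library 2 to 12.4 CPM, with one from 11.4 to 13.5. The mean was 13.3 ± 1.28 CPM (SD, n = 2). Relative to exon length Adora2b stood at 7.71 and 6.73 CPM per kb, first of the 40 receptors in each library and 10.1 and 4.26 times the background limit. Library 1 exceeded library 2 by 1.15 times in CPM, and neither came near the background limit.

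Adora3 (ENSMUSG00000000562, chromosome 3, 105870858 to 105908926, plus strand) encodes the Gi-coupled adenosine A3 receptor, well known from mast cells. It had 1082 and 495 counts, which were 15.5 and 11.7 CPM (13.6 ± 2.66 CPM, SD, n = 2), or 4.15 and 3.14 CPM per kb. Its annotation shares 779 bp of exon (20.9% of its 3729 bp) with Tmigd3 on the same strand, and how counts were divided between them is not given in the sources used here. Tmigd3 was left with 1 and 10 counts. By counts the difference between Adora3 and Adora2b was within counting error: the ratio of Adora2b to Adora3 was 0.920 (95% interval 0.843 to 1.003) in library 1 and 1.06 (0.936 to 1.20) in library 2. Per kb of exon Adora2b was the higher one, by 1.86 times (1.70 to 2.03) and 2.14 times (1.89 to 2.43). Of 8 mast cell genes 1, the growth factor receptor gene Kit, was above background in both libraries, beside 49.8% of protein-coding genes. The list held 30.0 and 25.8 CPM, of which Kit alone was 26.8 and 18.7. The other 7 genes ranged from 0 to 82 counts in library 1 and from 0 to 93 in library 2. The chymase gene Cma1, with 82 and 47 counts, was above the limit in library 1 alone, the carboxypeptidase gene Cpa3 had 50 and 50, Mcpt4 0 and 26, and the IgE receptor gene Fcer1a 0 in both. The part of mast cells in the Adora3 counts was not tested.

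Adora2a, which encodes the high-affinity Gs-coupled adenosine 2A receptor (ENSMUSG00000020178, chromosome 10, 75316877 to 75334784, plus strand), had the widest gap between libraries of the adenosine receptors. Library 1 held 825 counts, or 11.8 CPM with a 95% Poisson interval from 11.0 to 12.6, and library 2 held 171, or 4.05 CPM with one from 3.46 to 4.70. The mean was 7.92 ± 5.48 CPM (SD, n = 2). In CPM library 1 exceeded library 2 by 2.92 times, and per kb of exon the level lay 5.06 times above the background limit in library 1 but at 0.835 of it in library 2. In library 1 the difference per kb between Adora3 and Adora2a was within counting error (ratio 1.08, 95% interval 0.983 to 1.18), whereas in library 2 the ratio was 2.38 (1.99 to 2.85). Adora1, which encodes the Gi-coupled A1 receptor, was at 2.67 and 5.49 CPM and within background in both.

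Of the serotonin receptors, 2 of 14 were above background in both libraries, and 12 were not. Beside them stand 49.8% of protein-coding genes and 2.20% of olfactory receptors. Htr7 (ENSMUSG00000024798, chromosome 19, 35958734 to 36057507, minus strand) encodes a Gs-coupled receptor, and had 976 and 390 counts, or 4.11 and 2.71 CPM per kb, 5.40 and 1.72 times the background limit. Its rank among the 40 receptors was 3 in library 1 and 4 in library 2. Per kb Adora2b exceeded Htr7 by 1.88 times (95% interval 1.72 to 2.05) in library 1 and 2.48 times (2.17 to 2.83) in library 2. The ratio of Adora3 to Htr7 per kb was 1.01 in library 1, with an interval of 0.926 to 1.10 that includes no difference, and 1.16 (1.01 to 1.32) in library 2.

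Htr2b (ENSMUSG00000026228, chromosome 1, 86099026 to 86111970, minus strand) encodes the Gq-coupled 2B receptor, a paralogue of the targeted gene. It had 259 and 322 counts, or 1.74 and 3.58 CPM per kb, which put it at 2.28 and 2.26 times the background limit, almost the same multiple in each library. Its rank was 5 in library 1 and 2 in library 2, and its order with Htr7 changed: the ratio of Htr7 to Htr2b per kb was 2.36 (95% interval 2.06 to 2.72) in library 1 and 0.759 (0.653 to 0.883) in library 2. The whole of Htr2b lies inside Psmd1, a proteasome subunit gene on the opposite strand, and 252 bp (11.8%) of its exon overlap a Psmd1 exon. Psmd1 stood at 119 and 127 CPM. Since the use of strand in counting is not given, reads of both genes cannot be told apart there, and the part of Psmd1 in the Htr2b counts was not tested.

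No other serotonin receptor was above the limit in both libraries. The targeted Htr2a itself (ENSMUSG00000034997), at 0.196 and 0.494 CPM per kb, had rank 28 and rank 36 among the 40 receptors and lay below the median olfactory receptor (0.221 and 0.645). Per kb Htr2b exceeded Htr2a by 8.85 times (95% interval 6.84 to 11.6) and 7.24 times (5.84 to 9.02). The ion channel gene Htr3a was above the limit in library 1 (0.941 CPM per kb) and not in library 2 (0.772), while its partner subunit gene Htr3b was at 0.196 and 1.58 CPM per kb, 0.999 of the limit in library 2. The brain-enriched Gi-coupled receptor gene Htr1f had 0 counts in library 1, which allows up to 0.0429 CPM, and 67 counts (1.59 CPM) in library 2, at least 36.9-fold higher when a count of 0 is taken as 3. The other 8 (Htr1a, Htr1b, Htr1d, Htr2c, Htr4, Htr5a, Htr5b and Htr6) were below the limit in both, the nearest being Htr5a in library 1 (0.849 of it) and Htr1d in library 2 (0.696).

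Adrenergic receptors were above background in library 1 alone, in 4 of 8 genes, beside 58.9% of protein-coding genes above it in that library. Of 20839 protein-coding genes other than olfactory receptors, 1905 were above background in library 1 alone and 638 in library 2 alone. Adrb1, the Gs-coupled beta-1 receptor gene, had 316 and 100 counts (1.34 and 0.700 CPM per kb). Adra1a, a Gq-coupled alpha-1 receptor gene, had 727 and 364 counts (1.19 and 0.987 CPM per kb), Adra2b, a Gi-coupled alpha-2 receptor gene, 280 and 79 (0.998 and 0.466), and Adra1d 115 and 107 (0.866 and 1.33). All 4 lay 1.14 to 1.76 times above the limit in library 1 and at 0.294 to 0.843 of it in library 2. In library 1 the order per kb of Adra1d and Adra1a was opposite to that in library 2, with ratios of 0.727 (95% interval 0.592 to 0.886) and 1.35 (1.08 to 1.68). The exons of Adra1a span 8728 bp in all against 4282 bp for its longest transcript, so its level per kb rests on which isoform is counted. The other 4 genes, Adra1b, Adra2a, Adra2c and Adrb3, were within background in both libraries.

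Of the histamine receptors, Hrh2, the Gs-coupled H2 receptor gene, was the highest, with 390 and 271 counts (5.99 ± 0.590 CPM, SD, n = 2). Its level per kb, 0.940 and 1.08 CPM, was 1.23 times the limit in library 1 and 0.683 of it in library 2. Hrh2 exceeded the Gq-coupled Hrh1 per kb by 2.63 times (95% interval 2.13 to 3.28) in library 1, and in library 2 by 1.21 times, with an interval of 0.994 to 1.48 that includes no difference. Hrh3 and Hrh4, the Gi-coupled members, had 41 and 94 and 19 and 43 counts and were within background.

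Of the 5 muscarinic receptors 1 was above background in both libraries, and of the 5 dopamine receptors 0, beside 49.8% of protein-coding genes. Chrm5 (ENSMUSG00000074939, chromosome 2, 112479171 to 112480769, minus strand), which encodes the Gq-coupled M5 receptor, had 119 and 118 counts, or 1.06 and 1.75 CPM per kb, and lay closest above the limit of the receptors called, at 1.40 and 1.10 times. With so few counts, the lower end of its Poisson interval fell below the limit in library 2. Chrm1 to Chrm4 ranged from 0.167 to 0.503 CPM per kb in library 1 and from 0.805 to 0.977 in library 2. The 5 dopamine receptor genes held 180 counts together in library 1 and 413 in library 2. They reached percentile 58.9 of the olfactory receptor genes at most in library 1 and 69.6 in library 2, and none was above the limit in either. Just outside the limit in library 2 lay Htr3b (0.999 of it), which was far below it in library 1 (0.257), and then Adra1d (0.843) and Adora2a (0.835), both above it in library 1. Just inside, after Chrm5, lay Htr7.

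**Figure D2:**
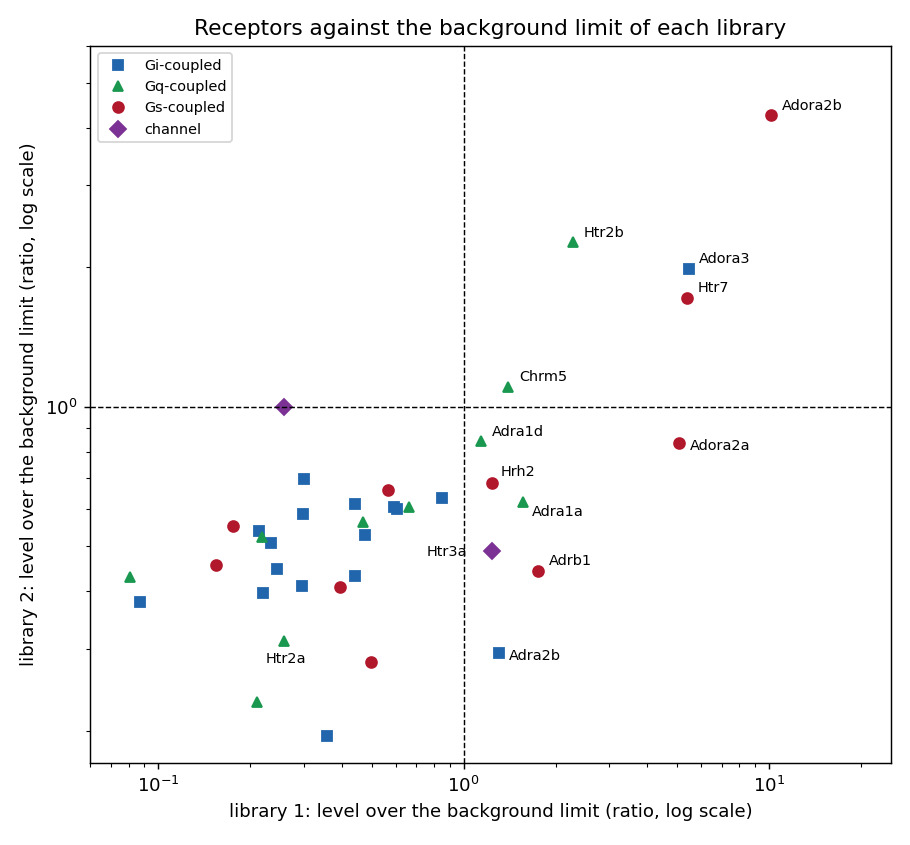
Level of each receptor over the background limit in library 1 (x, log axis) and library 2 (y, log axis), 1 point per gene, with colour and shape for the G protein it is known to couple to; Htr1f, with 0 counts in library 1, is not drawn. The 5 genes in the upper right lie above both dashed lines, led by Adora2b at 10.1 and 4.26 times, the 7 genes in the lower right lie above the limit in library 1 alone, and the diamond on the horizontal line is Htr3b.

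By coupling, receptors above background in both libraries were 2 of 10 Gs-coupled (Adora2b and Htr7), 2 of 10 Gq-coupled (Htr2b and Chrm5), 1 of 18 Gi-coupled (Adora3) and 0 of 2 channel subunits. In library 1 the Gs-coupled receptors numbered 5 of 10, with Adora2a, Adrb1 and Hrh2 added. Gq-coupled ones numbered 4 of 10 there, Gi-coupled ones 2 of 18 and channel subunits 1 of 2. Of protein-coding genes other than olfactory receptors, 58.9% passed the limit of library 1, and 49.8% passed both limits. Summed over genes, Gs-coupled receptors held 55.0 CPM of the 120 CPM of all 40 receptors in library 1 and 48.3 of 161 in library 2. The adenosine receptors alone held 44.2 and 33.7 CPM, and no difference between coupling classes was tested.

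Most receptors differed between the libraries, as did most genes tested. With edgeR's exact binomial test (library 2 against library 1, TMM scaling, Benjamini-Hochberg adjustment over 30373 genes), 35 of 40 receptors were called, beside 80.2% of all genes tested. Of these, 26 were higher in library 2 (44.2% of all genes tested were) and 9 lower (36.1%). The test covers counting error only and compares these 2 libraries, not conditions. With an assumed dispersion of 0.04 between libraries, 17 of 40 receptors were called (33.6% of all genes tested); Adora2a (adjusted p = 3.85e-05 in edgeR's exact test) and Htr7 (0.0321) were among them, and Adora2b (0.193) and Adora3 (0.0837) were not. The median log2 ratio was 0.63 for the 40 receptors, also with Htr1f set to its bound, 0.15 for all genes tested and 1.03 for the 893 olfactory receptors tested, of which 74.7% were called higher in library 2. Those 893 of 1135 passed a minimum of 1 CPM in at least 1 library; without that minimum the olfactory median was 0.94, and it was 0.82 when each library had to hold 10 counts or more. A gene high in either library alone can pass the 1 CPM minimum. Of these filters, the 1 CPM minimum gave the olfactory median that lay furthest toward library 2. For all genes it went the other way, the median without the minimum being higher, at 0.24. Scaling by total counts moved the median of all genes to 0.65 and that of the receptors to 1.12.

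Receptors within background were mostly higher in library 2, as the olfactory receptors were. Of the 28 receptors above the limit in neither library, 25 were called by the same test, all higher in library 2. Beside them, 44.2% of all genes tested and 74.7% of the olfactory receptors tested were called higher. The median log2 ratio of the 28 was 1.02, against 1.03 for the olfactory receptors that passed the 1 CPM minimum. How close these medians lie depends on that minimum, since the olfactory one was 0.94 without it. It was 0.82 with at least 10 counts in both libraries. Among the 25, Htr2c had 40 counts in library 1 and 268 in library 2, Htr3b 33 and 161, and Drd1 34 and 134. The 12 receptors above the limit in at least 1 library, all 12 of them in library 1 and 5 in library 2, had a median of -0.77. Of them 9 were called lower in library 2 (36.1% of all genes tested were) and 1, Htr2b, higher. Since both sets of receptors were sorted by their levels in the same libraries, these counts are descriptions. Adora2a differed most (log2 ratio -2.04), followed by Adra2b (-1.59), Adrb1 (-1.43), Htr7 (-1.10), Adora3 (-0.90), Htr3a (-0.78), Adra1a (-0.77), Adora2b (-0.70) and Hrh2 (-0.30). With total counts these were -1.54, -1.09, -0.93, -0.60, -0.40, -0.28, -0.27, -0.20 and, with the sign turned, 0.20 for Hrh2. Of the cell lists measured, summed CPM was lower in library 2 for Langerhans cell, macrophage, T cell, fibroblast (114 and 42.7) and endothelial genes (84.5 and 48.4). It was higher for keratinocyte, neutrophil and eosinophil (313 and 624), melanocyte (25.2 and 36.9) and Schwann cell and neuron genes (12.5 and 23.8). Within those lists the genes did not all move one way: S100a9 (182 and 425 CPM) and S100a8 (63.6 and 165) made up most of the neutrophil and eosinophil sum, whereas Csf3r was at 56.3 and 15.2 CPM. Tyrp1 and Elavl4 had 0 counts in library 1, whereas Tubb3 was at 3.23 and 0.875 CPM and Mlana at 1.80 and 1.63. The part of these cells in the receptor differences was not tested.

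**Figure D3:**
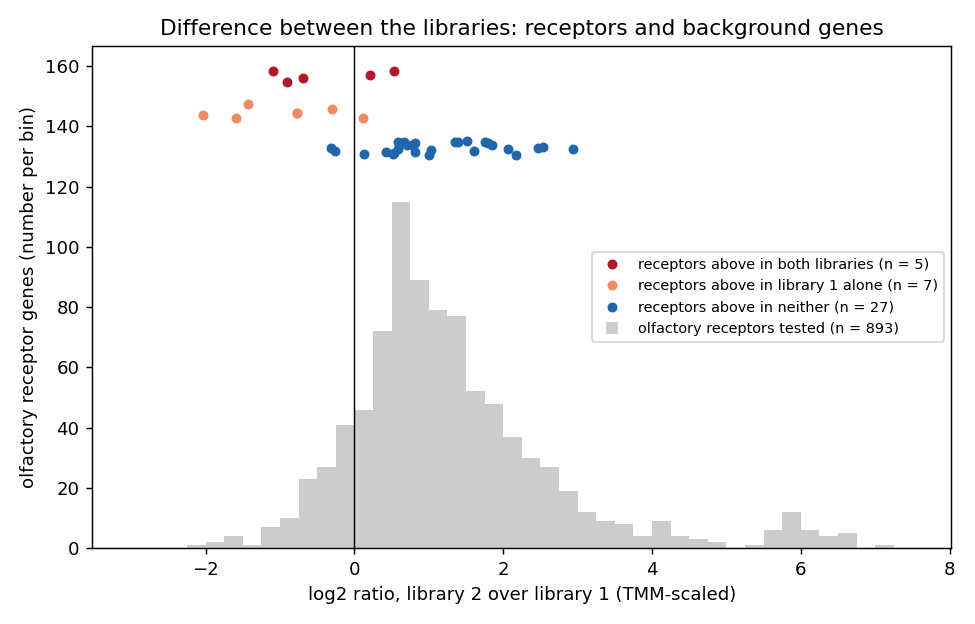
Log2 ratio of library 2 over library 1 (x, TMM-scaled, prior count of 1) for 39 receptors (points, in 3 rows by their place against the background limit, with small vertical offsets for legibility) above a histogram of 893 olfactory receptor genes (y, genes per bin of the histogram). Receptors above the limit in neither library lie over the body of the histogram, with a median of 1.02 against 1.03 for olfactory genes that passed the 1 CPM minimum. Without that minimum the olfactory median was 0.94. Receptors above the limit in library 1 alone lie mostly left of 0. Htr1f is not drawn, and the small group of olfactory genes near 6 has few or no counts in library 1.

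Most genes that supply or remove adenosine were above background, and few of those that do so for the amines. Of 19 genes of adenosine supply and removal, 14 were above background in both libraries, led per kb by the purine nucleoside phosphorylase gene Pnp (23.1 and 19.5 CPM per kb), the nucleoside transporter gene Slc28a2 (20.1 and 6.35) and Acpp, which encodes an acid phosphatase with a membrane form that dephosphorylates AMP (12.2 and 12.8). The ectonucleotidase genes Entpd1 (CD39), at 9.90 and 4.19 CPM per kb, and Nt5e (CD73), at 1.35 and 1.63, form adenosine from ATP in sequence, and both passed the limit, which was 1.58 in library 2. Of 23 genes of amine and acetylcholine supply and removal 4 were above background in both, led by the monoamine oxidase gene Maoa (2.58 and 11.4 CPM per kb), the histidine decarboxylase gene Hdc, which makes histamine (5.52 and 3.28) and the serotonin transporter gene Slc6a4 (1.82 and 5.74). Both counts stand beside 49.8% of protein-coding genes.

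Signalling genes downstream of the receptors included some of far higher level. The counts of each list stand beside 49.8% of protein-coding genes above background in both libraries. Of 13 G protein alpha subunit genes 9 were above background in both libraries, led by Gnai2 (207 and 89.0 CPM per kb), Gna13 (79.4 and 40.7) and Gnai3 (40.9 and 36.1); Gnas, which encodes Gs, was at 27.4 and 25.8 and Gnaq at 9.62 and 5.63. Of 10 adenylyl cyclase genes, 4 were, led by Adcy7 (17.8 and 7.62), Adcy6 (9.70 and 3.96) and Adcy9 (2.00 and 3.39). Of 4 phospholipase C beta genes 2 were, Plcb3 (5.92 and 11.0) and Plcb2 (8.74 and 3.73). Of 14 cAMP phosphodiesterase genes 6 were, led by Pde4b (30.5 and 32.4), Pde8a (14.3 and 7.81) and Pde3b, at a mean of 4.38 CPM per kb.

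Among receptor kinases and arrestins, which silence active receptors, 5 of 8 were above background in both libraries, beside 49.8% of protein-coding genes. They were led by Arrb2 (64.4 and 24.4 CPM per kb), Grk2 (42.3 and 23.6) and Grk3 (25.5 and 16.8). All 10 genes known as cAMP targets were above background, led by Fos (607 and 303), Nr4a3 (381 and 134) and Dusp1 (269 and 216), genes that many other stimuli also induce. The highest receptor, Adora2b, at a mean of 7.22 ± 0.693 CPM per kb (SD, n = 2), was thus below the leading G protein subunit, kinase, arrestin and phosphodiesterase genes in both libraries.

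**Figure D4:**
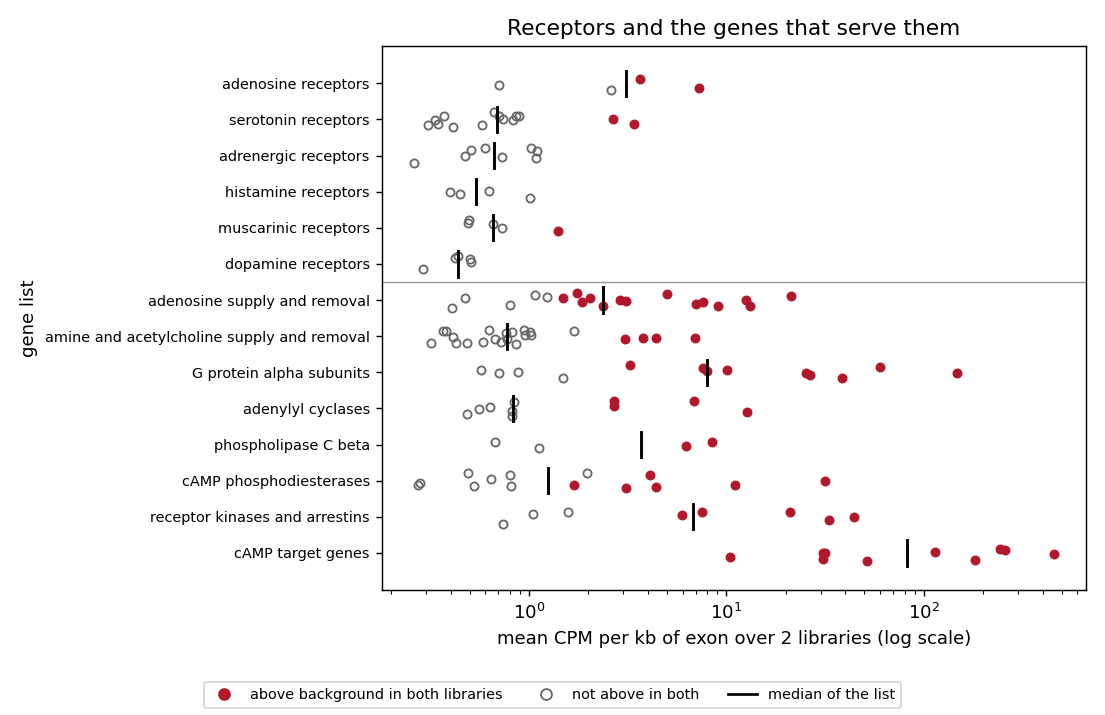
Mean level over both libraries in CPM per kb of exon (x, log axis) for each gene (points, with small vertical offsets for legibility) of the 6 receptor families (upper rows) and of 8 lists of ligand handling and signalling genes (lower rows). Filled points were above background in both libraries, open points were not, and black bars are list medians; 5 of 40 receptors are filled, against 14 of 19 adenosine supply and removal genes and 9 of 13 G protein alpha subunit genes.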

How the data were processed

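The authors deposited raw counts, as whole numbers for each Ensembl gene, in a table with a column for each library. Per the submitters' processing notes, Trimmomatic, HISAT2, SAMtools and StringTie were used with GRCm38; their settings, annotation and handling of strand, and what 1 count stands for, are not stated in the labels or the table. Per the labels' protocols, 10 to 70 ng of total RNA went into a stranded low-input kit. The column numbered 2 is library 2 and the unnumbered one library 1. The labels name no mice, so the spread between libraries may be technical, and p-values reach no further than these libraries. A last row of totals was left out.

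CPM used column totals, and exon length was the union of exons in GENCODE M21 (55227 rows with a length). Intervals are exact 95% Poisson or conditional binomial ones and cover counting error only; a count of 0 allows 3 counts. Library differences were tested with edgeR 4.0.16 (R 4.3.3) on genes with at least 1 CPM in a library, at an adjusted p of 0.05; this was tested on simulated data. DESeq2 1.42.0 gave alternative size factors. Values are printed for receptors above background in a library, the highest of each family, Htr2a, those next to the limit, and the 3 highest of each pathway list. Members, lists and background genes were chosen with earlier results of these data known. Of 18 lists, 2 symbols (older names of Grk2 and Grk3) had no row. The values of 1 listed gene are not reported here.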

Additional observations from a re-analysis of the deposited data

How the results depend on the processing

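The count of receptors above background in both libraries, 5, was 4 at the 99th percentile and with the lower end of the Poisson interval (Chrm5 dropped out), 7 at the 90th percentile (Adra1d and Adora2a added), 5 against 371 vomeronasal and taste receptor genes, 6 with the longest transcript (Adra1a added) and 7 without length, where Chrm5 was replaced by Adra1a, Hrh2 and Chrm1. Adora2b, Adora3, Htr7 and Htr2b were in every one of these sets. With 1 library left out it ranged from 5 to 12, library 1 by itself giving 12. Of receptors called between the libraries, 35, the number was 33 to 36 under other scalings and filters and 17 when edgeR assumed a dispersion of 0.04 between libraries; with total counts 75.9% of all called genes were higher in library 2, against 55.1% with TMM. A difference between libraries has no value with 1 library.

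Log2 ratios per kb, with the range over single libraries, were 0.42 for Htr7 over Htr2b (-0.40 to 1.24), -0.013 for Adra1d over Adra1a (-0.46 to 0.43), 0.84 for Hrh2 over Hrh1 (0.27 to 1.40), 0.12 for Drd2 over Drd1 (-0.032 to 0.28), 0.97 for Chrm5 over Chrm1 (0.86 to 1.08) and 1.00 for Adora2b over Adora3 (0.89 to 1.10). With the longest transcript, Adra1d over Adra1a was -1.04 and Adora2b over Adora3 0.34. Without length, Adra1d over Adra1a was -2.21, and Drd2 over Drd1 (-0.39), Chrm5 over Chrm1 (-1.05) and Adora2b over Adora3 (-0.018) changed sign, since the length of the genes no longer enters. Each level kept within 1 SD of its mean with TMM-scaled CPM. No paired analysis was possible because there is 1 group.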
